A study of Homo sapiens with 2 samples.

Results

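The MYC, MAX and MXD network was examined in the ChIP-seq data for WSTF, the chromatin remodelling protein encoded by BAZ1B, in SW620 colorectal cancer cells. SW620 is an established human line grown from a metastatic colorectal adenocarcinoma. The 10 network genes were found by symbol in the RefSeq gene table of GRCh38.p14, out of 20037 protein-coding genes on chromosomes 1 to 22, X and Y. The series has 2 samples from these cells, titled SW620 and SW620-IP, with no labelled treatment. The design text describes WSTF overexpression and an anti-WSTF antibody with input DNA as control, while the series title speaks of WSTF knockdown, so the WSTF level of the cells is not settled here. A single list of 2697 peak summits, each 1 base wide, was analysed. It has no replicate list and no read counts, so no value below carries a replicate error or a test, and the sequencing depth is unknown.

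MYC, MYCN and MYCL encode basic helix-loop-helix leucine zipper proteins that bind the E-box CACGTG as dimers with MAX and activate growth genes. MXD1, MXI1, MXD3, MXD4 and MNT encode proteins that compete for MAX, bind the same sites and repress through SIN3 corepressors. MGA also dimerises with MAX and is the scaffold of a Polycomb complex. In colorectal cancer MYC is a known target of Wnt signalling, and a gene-poor stretch of 8q24 beside it holds enhancers and long non-coding RNAs tied to colorectal cancer.

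Of the 10 genes, 3 had a summit between points 1 kb below and 1 kb above the gene: MYC, MNT and MGA. By the same rule 13.8% of all protein-coding genes had one. The 3 genes held 5 summits. MYC was the 1 called gene of the 3 activators, MNT and MGA were the 2 called genes of the 6 repressors, and MAX, the shared partner, had none. The score of a summit is the authors' own, taken here to be a q-value on the −log10 scale. It ranks summits within the list and is not an amount of bound protein. Over the whole list the median score was 3.72 and the quartiles were 2.76 and 5.04.

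**Figure D1:**
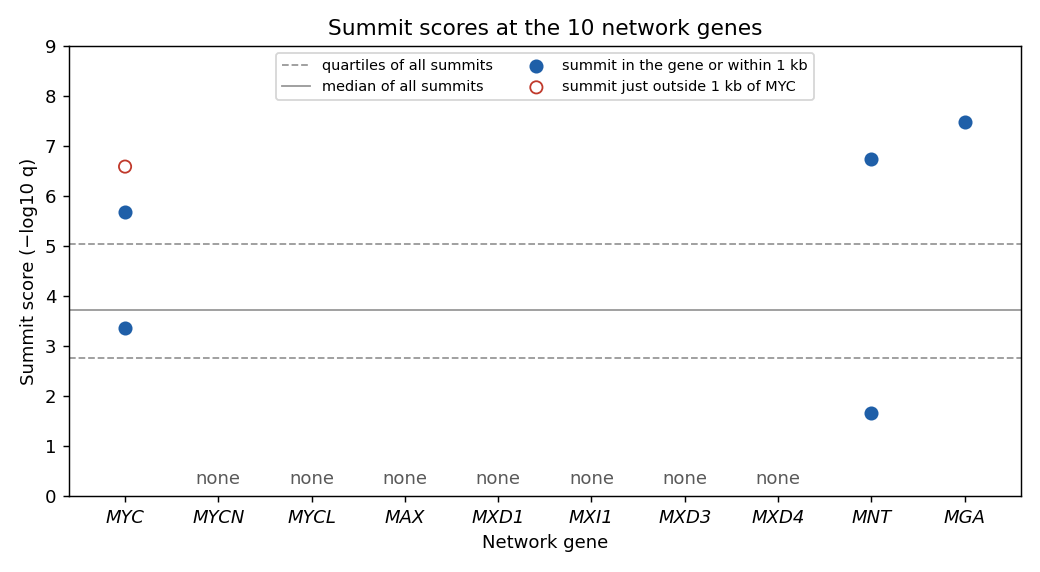
Score (−log10 q) of every summit inside or up to 1 kb from each network gene (filled points), with the summit that lay 1288 bp outside MYC as an open circle and lines for the median and quartiles of all 2697 summits. The highest summit of MYC (5.68), MNT (6.75) and MGA (7.48) lay above the upper quartile of 5.04, and 7 genes had none.

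MYC, the founding activator of the network, lies on chromosome 8 from 127735434 to 127742951 (hg38) and is transcribed towards higher coordinates. Its 2 summits were inside the gene. The one at 127737218 scored 3.37 and the one at 127737965 scored 5.68. They lay 1784 and 2531 bp from the lower end of the gene and 747 bp apart. The stronger of them ranked 440 of 2697, and 16.3% of all summits scored higher. The weaker one was below the list's median. Neither was within 1 kb of an end of MYC. Of the 2765 protein-coding genes called by the 1 kb rule, 2321 had a summit there, which is 11.6% of all protein-coding genes. The gene table gives no exons, so the summits were not assigned to exons or introns.

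Another summit lay just outside the 1 kb limit, 1288 bp below MYC at 127734146, and scored 6.59, more than either summit inside the gene. It was 179 bp beyond the upper end of CASC11, a long non-coding RNA gene next to MYC (127700608 to 127733967). The next summits outward of a called gene were much farther away: 24.5 kb for MNT and 219 kb for MGA. The 3 summits around MYC fell on either side of the lower end of the gene, where it starts, over a span of 3819 bp, and the closest of them was the one 1288 bp away.

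Within 1 Mb of MYC the list held 5 summits: these 3 and a pair far downstream. The pair lay at 128555039 and 128556816, 812 and 814 kb above MYC and 1777 bp apart. Both were inside LINC00824, a long non-coding RNA gene (128405269 to 128564679), 9640 and 7863 bp from its upper end. They scored 8.70 and 5.20. The score of 8.70 was the highest of the 78 summits on chromosome 8 and ranked 79 in the list, above every summit at a network gene.

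No other gene of this region had a summit. Of 27 annotated genes within 1 Mb, 24 had none inside or up to 1 kb away. Most protein-coding genes lack one as well, since 13.8% had a summit by this rule. The share over all non-coding genes, which make up most of this region, was not counted. Below MYC, the colorectal cancer-associated transcripts CCAT1 (127207382 to 127219268) and CCAT2 (127400399 to 127402150) had none. The same held for CASC8, CASC19, CASC21, PCAT1, PCAT2 and PRNCR1, and for POU5F1B, a retrogene of the pluripotency factor gene and the only other protein-coding gene there. The summit nearest to MYC on that side, other than the one beside CASC11, lay 2.74 Mb away. Above MYC, the long non-coding RNA gene PVT1 (127794524 to 128101256) had no summit over its 307 kb, and neither did the 5 microRNA genes MIR1204 to MIR1208. Beyond the pair in LINC00824 the next summit was 4.74 Mb farther on. At an unknown depth, the absence of a summit does not show that WSTF was absent.

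**Figure D2:**
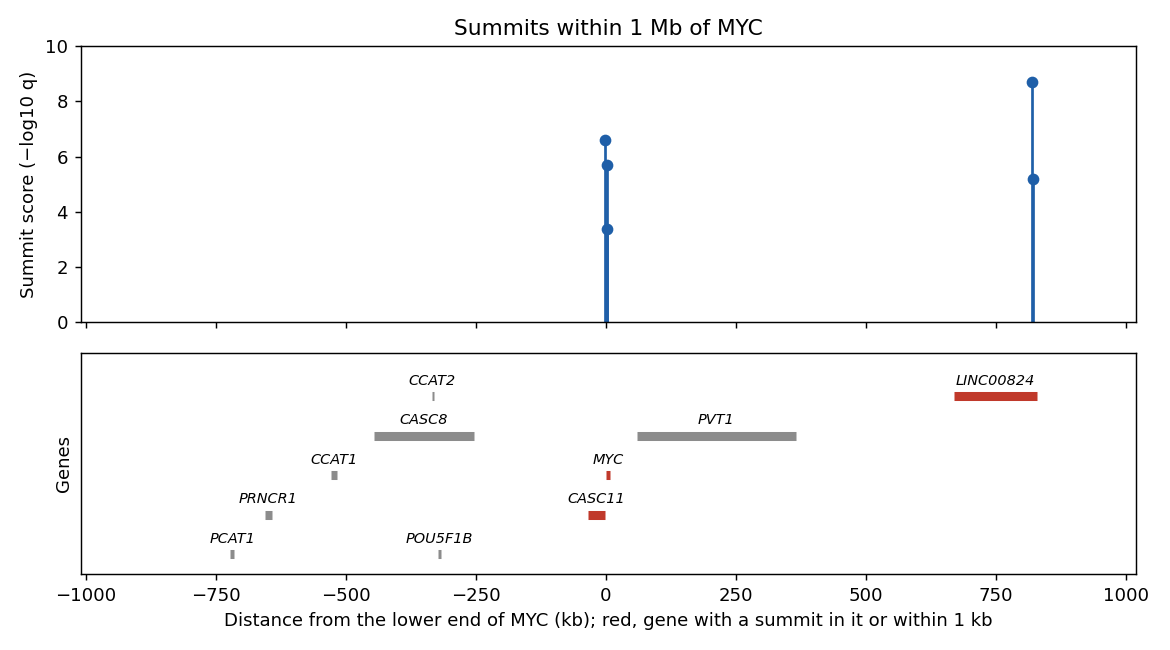
Score (−log10 q) of the 5 summits within 1 Mb of MYC by distance from the lower end of the gene in kb (top), above selected genes of the region drawn to scale (bottom; red, at least 1 summit inside or up to 1 kb away; grey, none). Summits stand at MYC and CASC11 and inside LINC00824, and the stretch that holds CCAT1, CCAT2, CASC8 and POU5F1B has none.

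The median protein-coding gene had 3 summits within 1 Mb, with quartiles of 1 and 6, and 31.9% of genes had at least the 5 found around MYC. Among the network genes MNT had 14 and MXD4 had 10. MXD3 had 4, MYCL and MXD1 had 3 each, MAX, MXI1 and MGA had 2 each, and MYCN had none. These counts include a gene's own summits, which were 2 of the 14 for MNT, 2 of the 5 for MYC and 1 of the 2 for MGA. All 10 for MXD4 lay more than 1 kb from that gene. MYC had 2 protein-coding genes in its window, itself included, against a median of 24 over all protein-coding genes, 41 for MNT and 45 for MGA.

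**Figure D3:**
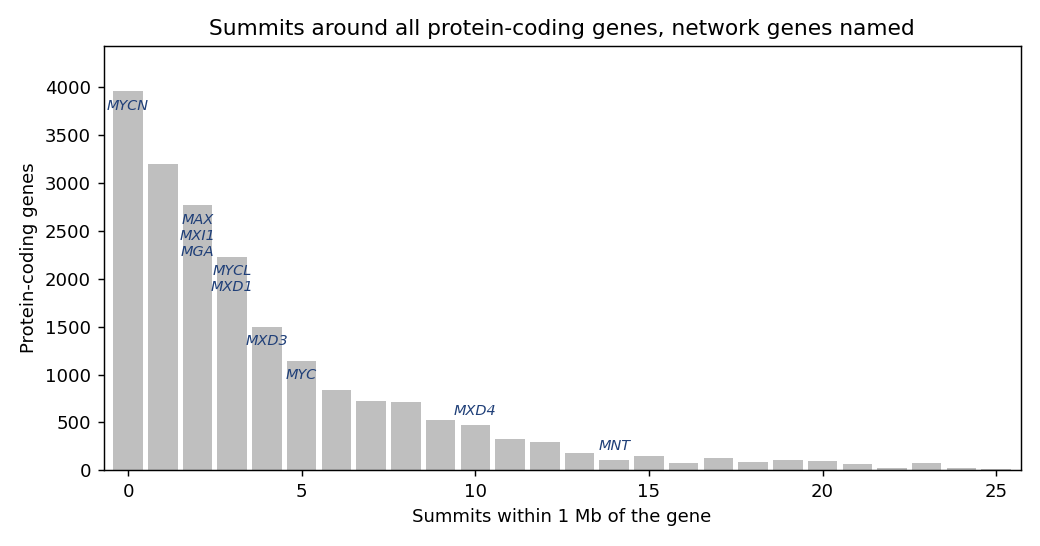
Number of protein-coding genes (vertical axis) by the number of summits within 1 Mb of them (horizontal axis), with each network gene named at its bar; 234 genes with more than 25 summits are not drawn. MYC stands at 5, MNT at 14 and MYCN at 0, against a median of 3.

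MNT, a widely expressed MAX partner that opposes MYC, lies on chromosome 17 from 2384073 to 2401060 and is transcribed towards lower coordinates. Its 2 summits were 1545 bp apart on either side of the start. The one at 2401375 lay 315 bp upstream of the start and scored 6.75 (rank 231). The one at 2399830 lay 1230 bp downstream of it, inside the gene, and scored 1.67 (rank 2628), near the lowest score in the list, 1.31. MNT and MYC were the 2 members with more than 1 summit. Of all protein-coding genes 0.818% had more than 1, and of those with a summit 5.93% did.

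MGA, the longest member at 148717 bp, lies on chromosome 15 from 41621224 to 41769940. Its single summit at 41621839 scored 7.48 (rank 149), the highest of any network gene, and 5.49% of all summits scored higher. It lay 615 bp downstream of the outer start of MGA and inside the gene. The summit also lay near the long non-coding RNA gene LOC105370791, outside it and 384 bp from its nearer end. MGA has another pair of annotated starts farther inside the gene, and no summit was within 10 kb of either. Of all 2619 summits on chromosomes with annotated start windows, 74.6% were within 1 kb of a start, and the median distance was 194 bp.

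In the order of highest score, MGA stood at 168, MNT at 252 and MYC at 470 of the 2765 protein-coding genes with a summit, whose median highest score was 3.74. The 5 genes just above MYC were ESRP2, an epithelial splicing regulator, SLC9A3, the apical sodium-proton exchanger of the gut, OBSL1, the mismatch repair gene PMS1 and ORMDL1, with scores from 5.68 to 5.72. The 5 just below were BLOC1S2, CLK4, FBXO31, LOC124900163 and MAP1LC3B, all at 5.67. Equal scores were ordered by symbol, so genes beyond these 5 may share that score. The likeness is in this 1 score alone.

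The other 7 genes had no summit within 10 kb, a distance at which 17.8% of all protein-coding genes had one. The summit nearest to MXI1, a MAX partner gene on chromosome 10 (110207605 to 110287365), was 17.3 kb away at SMNDC1, a splicing factor gene. That summit scored 4.21. For MXD4 (chromosome 4, 2247432 to 2262109) the nearest was 157 kb away, beside CFAP99 and ZFYVE28, with a score of 4.54. For MXD1 (chromosome 2, 69915109 to 69942945) it was 173 kb away inside ANXA4, with a score of 6.69. For MXD3 (chromosome 5, 177305499 to 177312752) it was 300 kb away inside UIMC1, with a score of 1.75. The 4 MXD family genes, MXI1 included, were all without a summit of their own, and MXI1 was the nearest to one. With 13.8% of all protein-coding genes called by the 1 kb rule, 4 genes without a summit do not set the family apart.

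The remaining members were farther still. The summit nearest to MAX (chromosome 14, 65006101 to 65102695) was 466 kb away in HSPA2, a heat shock protein gene, and scored 7.76. That nearest to MYCL (chromosome 1, 39895428 to 39901917), the lung cancer-associated paralogue of MYC, was 487 kb away inside MACF1 and scored 2.35. That nearest to MYCN (chromosome 2, 15940550 to 15947004), the neuroblastoma-associated paralogue, was 1807 kb away beside SMC6 and inside GEN1, and scored 4.30. MYC was thus the called member of the 3 MYC paralogues, and MYCN had the emptiest surroundings of the 10 genes.

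Promoter sequence was compared because network proteins bind CACGTG. RefSeq start windows of GRCh38.p14, 250 bases before to 50 bases after a start, were matched for 9 of the 10 genes (14 windows) and not for MYC. On either strand CACGTG was found at 2 of the 9, MNT and MXD4, against 10.9% of 15843 protein-coding genes with a window. The 250 bases before the start are shown for these, since 1 has a summit and 1 does not, and for the outer start of MGA, which has the highest-scoring summit and no E-box. Capitals mark CACGTG.

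MNT, minus strand, chr17:2401061-2401310: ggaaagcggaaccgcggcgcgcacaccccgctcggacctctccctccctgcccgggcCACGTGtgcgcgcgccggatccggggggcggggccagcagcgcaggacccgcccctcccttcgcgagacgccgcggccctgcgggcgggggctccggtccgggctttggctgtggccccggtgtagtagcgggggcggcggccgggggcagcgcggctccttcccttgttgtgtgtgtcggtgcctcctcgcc

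MXD4, minus strand, chr4:2262110-2262359: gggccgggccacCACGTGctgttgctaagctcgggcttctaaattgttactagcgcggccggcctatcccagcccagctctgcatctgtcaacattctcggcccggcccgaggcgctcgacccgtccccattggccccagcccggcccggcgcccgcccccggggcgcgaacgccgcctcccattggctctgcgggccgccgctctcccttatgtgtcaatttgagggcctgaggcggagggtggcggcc

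MGA, plus strand, chr15:41620974-41621223: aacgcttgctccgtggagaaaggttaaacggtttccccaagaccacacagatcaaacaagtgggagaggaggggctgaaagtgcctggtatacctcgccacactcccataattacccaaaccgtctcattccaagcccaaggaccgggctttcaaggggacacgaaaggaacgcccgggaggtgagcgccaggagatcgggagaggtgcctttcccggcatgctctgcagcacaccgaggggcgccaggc

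The E-box of MNT began at -193 relative to the start, 122 bp from the summit at -315. That of MXD4 began at -238, and the nearest summit was the one 157 kb away. The related CACGCG, on either strand, was found at 3 members (MXI1, MXD3 and MGA) of 9 against 18.1% of genes. The GC box GGGCGG, on either strand, was found at all 9 members against 64.3% of genes. A gene with several windows counts if any of them holds it. By window, it was present in 11 of 14, against 56.3% of all protein-coding windows. The 3 without it were 1 of MAX and 2 of MGA, the MGA window above among them. The windows of the members had a GC content from 55.0% at MXI1 to 76.0% at MNT, with a median of 65.7%. Protein-coding windows with a summit within 1 kb of the start had a median of 69.3% and the others 61.3%. CACGTG was in 12.3% of the former and 7.81% of the latter, and GGGCGG in 79.9% and 53.2%. GC content moved with the presence of a summit, and its part in the motif shares was not tested.

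The wider pathway was described with 6 lists of 79 genes in all, of which 18 (22.8%) had a summit by the same 1 kb rule, against 13.8% of protein-coding genes. The lists were composed with earlier results of these data known, so the shares are descriptions.

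**Figure D4:**
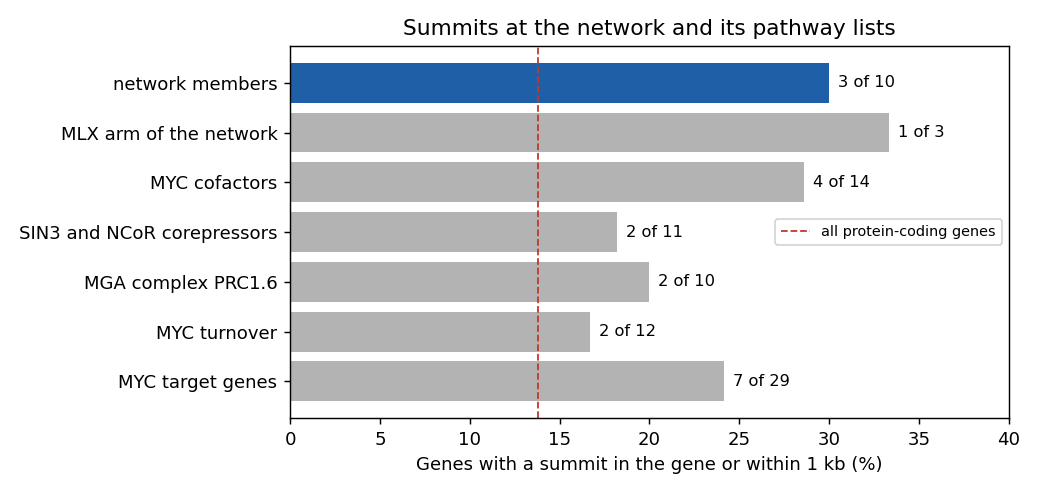
Share of genes (%) called by the 1 kb rule for the network members (blue) and the 6 pathway lists (grey), with counts beside the bars and the 13.8% of all protein-coding genes as a dashed line. The shares run from 16.7% (2 of 12, MYC turnover) to 33.3% (1 of 3, MLX arm).

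Among the genes of the parallel MLX arm, which senses glucose-derived metabolites, 1 of 3 had a summit. It was MLXIP, the gene of MondoA, with a score of 6.44 at 90 bp upstream of the start. MYC cofactors had 4 of 14. KAT5, the TIP60 acetyltransferase gene, had the highest score of any list gene, 9.12 (rank 68). That summit was at -145 bp from the nearest annotated start and inside the annotated limits of KAT5. CREBBP, the CBP acetyltransferase gene, scored 5.95, TRRAP, the scaffold that MYC contacts, 4.12, and CCNT1, the cyclin T1 gene of the elongation kinase, 2.36.

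The corepressors recruited by the repressor members, the Polycomb partners of MGA and the regulators of MYC stability each had a pair of called genes. SIN3 and NCoR corepressors had 2 of 11: SIN3A, the scaffold that MXD proteins bind, with 2 summits of 4.26 and 2.07, and the histone deacetylase gene HDAC2 (3.63). The MGA-containing Polycomb complex had 2 of 10, RYBP (6.01) and the HP1 gamma gene CBX3 (1.73). Genes of MYC turnover had 2 of 12, the ubiquitin ligase subunit gene SKP2 (5.20) and the deubiquitinase gene USP36 (3.58).

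MYC target genes had 7 of 29. At a score of at least 3 this fell to 2 of 29, against 9.63% of all protein-coding genes. At or above the median score it was also 2 of 29, against 7.32%, so the list was not above all genes at either minimum. The rate-limiting polyamine synthesis gene ODC1 scored highest (6.10), followed by SURF6 (5.78), a nucleolar protein gene, the translation initiation gene EIF4A1 (2.91), the ribosome biogenesis gene WDR43 (2.76) and the nucleolin gene NCL (2.52). The remaining count came from 1 summit of 2.16 shared by the neighbouring chaperonin genes HSPD1 and HSPE1, named here after their values were seen. Apart from ODC1 and SURF6, every called target gene scored below the list's median of 3.72.

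At 11 list genes the summit itself fell inside an annotated start window, and at 4 of these, KAT5, USP36, ODC1 and SURF6, CACGTG was among the 250 bases before the start. Among all protein-coding windows with a summit within 1 kb of the start, 11.4% held CACGTG in those bases. That is a share of windows at a wider reach, which 17 list genes met, so it is not matched to the 4 of 11. The target genes were listed as genes that MYC binds, so their E-boxes are not independent of the list. The sequences of KAT5, with the highest score, and ODC1, the best scoring target, are shown because both the summit and the E-box (capitals) lie within them.

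KAT5, plus strand, chr11:65712002-65712251: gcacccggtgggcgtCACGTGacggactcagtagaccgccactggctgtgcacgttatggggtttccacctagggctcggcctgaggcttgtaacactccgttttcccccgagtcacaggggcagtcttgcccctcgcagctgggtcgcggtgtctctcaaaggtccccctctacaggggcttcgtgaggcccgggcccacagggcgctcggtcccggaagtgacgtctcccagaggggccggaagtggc

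ODC1, minus strand, chr2:10448013-10448262: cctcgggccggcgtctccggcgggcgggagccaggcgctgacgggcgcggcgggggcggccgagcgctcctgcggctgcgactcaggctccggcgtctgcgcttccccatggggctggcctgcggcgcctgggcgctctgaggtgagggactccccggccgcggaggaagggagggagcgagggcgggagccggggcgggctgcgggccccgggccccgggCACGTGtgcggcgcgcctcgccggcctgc

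At KAT5 the E-box began at -235 relative to the start, 90 bp from the summit. At ODC1 it began at -29, 185 bp from the summit, which was at -214 from the start of this window and 101 bp downstream of another annotated ODC1 start.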

How the data were processed

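ChIP-seq libraries of SW620 cells (2 samples) were represented by 1 deposited list of peak summits. Fixation used 1% formaldehyde for 10 min and shearing gave 200 to 500 bp, per the labels' protocols. MACS2 2.2.7.1, Bowtie2 2.4.4, Trimmomatic 0.39 and build hg38 are named per the submitters' processing notes. The design text gives peak calling against input DNA and does not say whether replicates were pooled. The deposited score was taken as −log10 of the q-value, since its lowest value, 1.31, is just above −log10 of 0.05.

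Summits were placed in gene limits extended by 1 kb, from the RefSeq gene table of GRCh38.p14, with Python 3.11.15, numpy 2.4.6 and pandas 2.3.3. Starts and strands of the members other than MYC came from RefSeq start windows. No chromosome 8 windows were used here, so the direction given for MYC did not come from them. The placing of summits in gene windows was checked on simulated positions and matched a direct count there. The 10 members and all lists were chosen with earlier results of these data known. By rule, named genes were all members with their nearest summit, every gene with a summit within 1 Mb of MYC, the 5 highest scoring genes per list and the 5 genes on either side of MYC in score. Genes at those nearest summits, and genes of the MYC region without a summit, were named after their values were seen. Alternatives varied the window, the score minimum and the promoter length. Since depth is unknown and there are no replicates, no statistical test between samples or gene sets was run.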

Additional observations from a re-analysis of the deposited data

How the results depend on the processing

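MYC, MNT and MGA were the called members under 7 of 8 alternatives, while the share of all protein-coding genes called by the same rule moved from its 13.8%. That share was 8.12% with no window, 13.3%, 15.6% and 17.8% with windows of 500 bp, 5 kb and 10 kb, 9.63% at a score of at least 3, 7.32% at or above the median score and 13.8% without the 3 highest summits. With gene ends only, 2 were called, MNT and MGA, against 11.6%. The 5 summits within 1 Mb of MYC were 3 within 500 kb, since the pair in LINC00824 is farther away, 5 within 2 Mb and 4 at or above the median score. The median score over the called members was 6.75, and 8.41 when the scores of a gene's summits were summed, which placed MYC (9.05) above MNT (8.41) and MGA (7.48). Such a sum is not a q-value and rises with the number of summits, which was 2 at MYC and MNT and 1 at MGA. Of the 79 list genes, 18 were called, 9 with no window, 16, 21 and 23 with windows of 500 bp, 5 kb and 10 kb, 11 at a score of at least 3 and 9 at or above the median score, to be read against the same shares of all genes. The members with CACGTG were 2 in 300 bases and 2 in 250. No paired analysis was possible because the 2 samples gave 1 list with no value per sample. Depth is unknown, which limits every statement on a missing summit.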

Other observations

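The values here were chosen after the list had been seen, and they have no test. Joining summits less than 5 kb apart gave 6 clusters of at least 3 summits in the whole list, and the 1 formed by MYC and CASC11 was the only cluster of these at a network gene; 93.0% of summits stood alone. Surroundings with as few protein-coding genes as those of MYC rarely held as many summits. Of all protein-coding genes, 142 had at most 2 protein-coding genes within 1 Mb, themselves included. Their median was 0 summits, and 1 of them, MYC, had at least 5. This measure leaves out non-coding genes, and the MYC window held 16 long non-coding RNA genes. The 5 summits were also not spread out, being the cluster of 3 and the pair in LINC00824. At 500 kb MYC kept 3 of its 5.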
